A study of Homo sapiens with 20 samples.

Results

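The genes described here are 8 markers of the B lineage, CD79A, CD79B, IGHM, CD22, BLNK, MS4A1, PAX5 and POU2AF1, measured in T-cell acute lymphoblastic leukemia (T-ALL) lines. All 17 probe sets whose platform annotation names only 1 of these genes were taken, dim ones included, out of 22215 probe sets outside the controls. They stand for 8 of the 11963 genes that have a probe set of their own. A further 27 probe sets name IGHM together with other genes and were not used. IGHM has 5 probe sets, CD22 has 4, MS4A1 and PAX5 have 2 each, and the other 4 genes have 1 each. The genes were chosen by their array signals in these lines, together with a signal bound of 50 below which no change is set out as a result, so levels are described here without a test.

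The study treated 10 established T-ALL cell lines that its description says carry activating NOTCH1 mutations with CompE, a gamma-secretase inhibitor, at 100 nM for 72 h, or with the vehicle DMSO for the same time. Gamma-secretase is the protease complex that releases the active intracellular part of NOTCH receptors. RPMI8402, PF382, P12-ICHIKAWA, MOLT3, KOPTK1, HPB-ALL, DND41, CUTLL1, CCRF-CEM and ALL-SIL each gave 1 CompE array and 1 DMSO array. No line was arrayed again under the same treatment, so lines are the replicates.

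In B cells the antigen receptor is a membrane immunoglobulin, whose heavy chain of the first class, mu, is encoded by IGHM. It is held on the surface by the signalling chains CD79A and CD79B. Transcription factors such as EBF1 and PAX5 switch these genes on in B-cell progenitors, while NOTCH1 signalling steers progenitors toward the T lineage. POU2AF1 is a coactivator of octamer-binding factors that supports immunoglobulin transcription.

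T-lineage markers were bright in every line, though not each marker in each line. CD3D, a chain of the T-cell receptor complex, had a signal of 4461 to 9483 in CompE and 5699 to 9676 in DMSO. The summed signal of 11 measured T-lineage genes, by the brightest probe set of each, was 12850 to 28750 in CompE and 12420 to 24700 in DMSO. Among the lowest values were CD2 in CCRF-CEM (2.61 in CompE and 20.7 in DMSO), CD5 in DND41 (26.6 in CompE and 11.2 in DMSO) and CD7 in RPMI8402 (42.4 in CompE and 80.2 in DMSO). In the limma fit of CompE against DMSO, 2.78% of 7695 tested genes were called higher and 2.39% lower. These shares are the background for the marker counts in this paragraph, and nothing is read from counts this small. Of the 11 T-lineage genes, 2 rose and 1 fell. They were LCK, the T-cell receptor kinase, at 0.26 (limma adjusted p = 0.0334), GATA3, a T-lineage transcription factor, at 0.30 (limma adjusted p = 0.0368), and CD3G, a T-cell receptor chain, at -0.54 (limma adjusted p = 0.0368). These calls held in 9, 9 and 10 of 24 alternatives, and with 1 line left out the limma adjusted p ranged up to 0.0837, 0.0934 and 0.0907. Of 3 measured plasmacytoid dendritic markers, 2 were tested and 1 rose. It was IRF7, an interferon regulatory factor used by many cell types, at 0.60 (limma adjusted p = 0.020) in 10 of 10 lines. This call held in 20 of 24 alternatives, while IL3RA was at most 32.7 by its brightest probe set. The sum of the 3 markers was 240 to 717 in CompE and 150 to 486 in DMSO. Of 4 erythroid markers 1 was tested and 0 were called, with a sum of 176 to 615 in CompE and 107 to 398 in DMSO. Of 5 plasma cell markers 0 were bright enough to test, with a sum of 60.6 to 400.2 in CompE and 47.0 to 215 in DMSO. The part of these markers in the members' changes was not tested. Of 7 measured myeloid markers, 0 exceeded 50 on any array by their brightest probe sets. The summed signal of 6 measured markers of mature B cells was 107 to 1986 in CompE and 143 to 2607 in DMSO. Among these, CD79A, CD79B, MS4A1 and PAX5 are members themselves, so the sum is no separate check. CD79A in DND41 alone gave 1755 in CompE and 2469 in DMSO. MS4A1, BANK1 and FCER2 stayed at or below 50 by their brightest probe sets, those with the highest mean log2 signal. By its other probe set, 210356_x_at, MS4A1 reached 61.4 in MOLT3 in CompE. The ratio of 3′ to 5′ ACTB signal, which rises as RNA degrades, was 1.22 to 9.76 in CompE and 1.02 to 3.32 in DMSO. In 9 of 10 lines the CompE array had the higher ratio, and KOPTK1 was highest in both treatments. The 10th percentile of signal, a measure of the dim end of an array, was 3.08 to 8.93 in CompE and 2.90 to 5.67 in DMSO, and was higher in CompE in 7 lines.

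Upstream sequence from RefSeq (GRCh38.p14) was at hand for 4 of the 8 genes, CD79A, CD22, BLNK and PAX5. The 250 bases before the annotated start of CD79A are shown because this gene had by far the highest signal of the 8, in a single line. The stretch lies on the plus strand of chromosome 19 at chr19:41877029-41877278. Capitals mark the E-box CAGGTG, a motif of the kind bound by E proteins such as TCF3, 181 to 176 bases before the start.
CD79A: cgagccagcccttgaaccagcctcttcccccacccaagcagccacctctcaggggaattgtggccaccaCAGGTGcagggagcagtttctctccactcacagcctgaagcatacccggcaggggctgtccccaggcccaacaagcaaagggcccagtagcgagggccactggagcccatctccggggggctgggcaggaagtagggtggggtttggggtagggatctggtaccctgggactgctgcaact
On either strand, CAGGTG was found in 17.5% of the same 250 bases of 27305 genes. The other E-box searched, CAGCTG, was found in 13.8% of them, the octamer ATGCAAAT in 1.66% and CCCNNGGG, the core read by EBF factors, in 16.6%. These last 3 exact strings were not found in the CD79A stretch. Sites that depart from the strings were not searched for, so their absence does not show that a factor cannot bind there. BLNK held both E-boxes, and CD22 and PAX5 held none of the 4 motifs, which do not overlap one another in these stretches.

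The members' levels fell into 3 kinds. CD79A and IGHM were bright in 1 or 2 lines each, POU2AF1 and CD79B were moderate in most lines, and CD22, BLNK, MS4A1 and PAX5 were dim nearly everywhere. Of 170 values, each the mean of both arrays of a line for 1 probe set, 40 were above 50, and for 7 of the 17 probe sets no line was above it. The values nearest above the bound were CD22 (38521_at) at 50.2 in MOLT3 and 50.6 in KOPTK1 and CD22 (220674_at) at 51.9 in PF382. Those nearest below it were CD22 (38521_at) at 49.0 in ALL-SIL, IGHM (212827_at) at 47.1 in PF382 and MS4A1 (210356_x_at) at 43.3 in MOLT3. DND41 and HPB-ALL each had 5 of the 8 genes above the bound, and CCRF-CEM had 1, CD79B. A gene was counted here if any of its probe sets passed. In DND41, IGHM passed only by 211634_x_at, 215949_x_at and 216491_x_at, and was at 33.5 by 209374_s_at and 36.9 by 212827_at. CD22 passed in these lines by 38521_at alone, at 56.2 in DND41 and 59.6 in HPB-ALL. In a culture measured in bulk, more cells expressing a gene and more RNA per cell cannot be told apart.

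**Figure D1:**
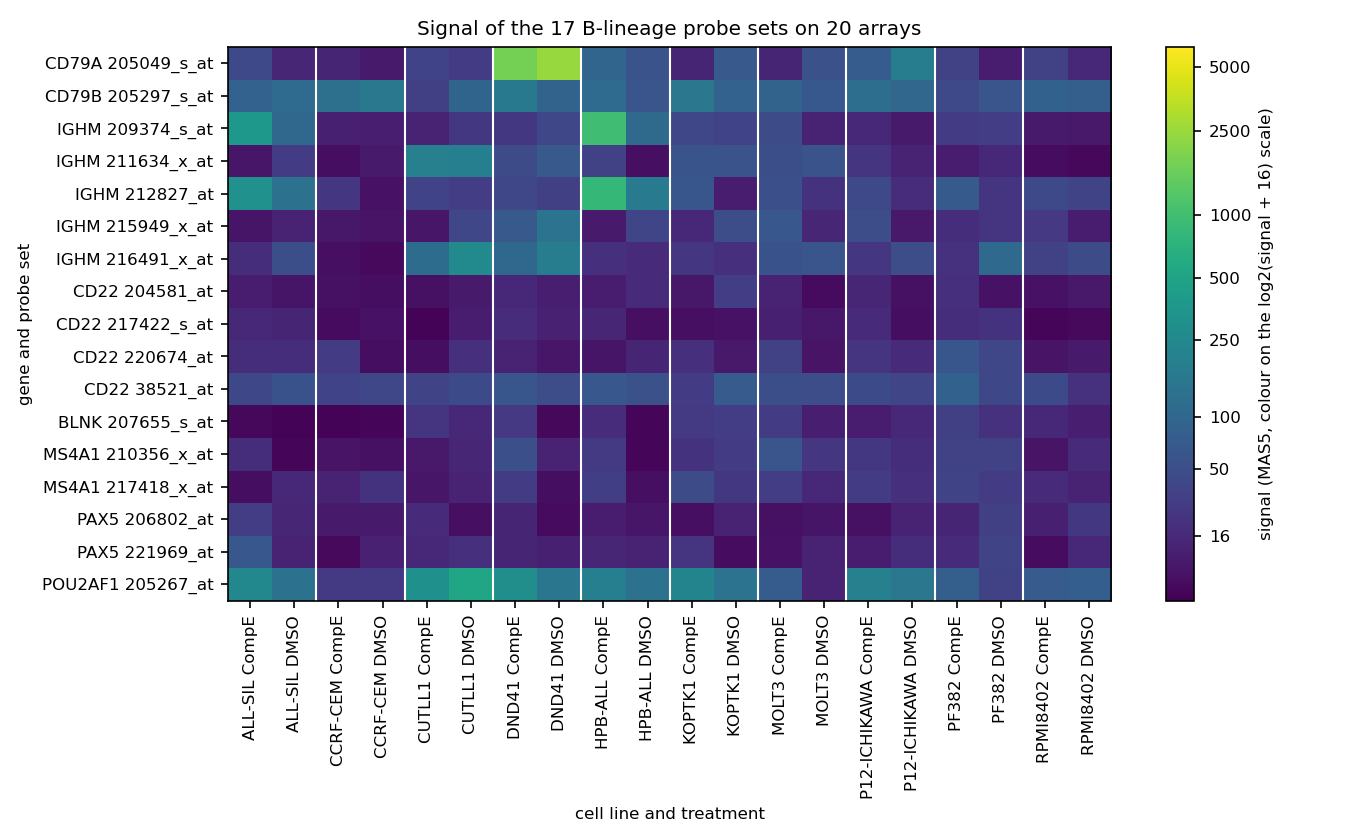
Signal of each of the 17 B-lineage probe sets (rows) on the 20 arrays (columns, CompE left of DMSO for each line), with colour on the log2(signal + 16) scale. CD79A reaches 1755 and 2469 in DND41, 2 IGHM probe sets are bright in HPB-ALL and ALL-SIL, and the rows of CD22, BLNK, MS4A1 and PAX5 are dark nearly throughout.

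CD79A, also called Ig-alpha, was bright in 1 line, DND41. Its signal (205049_s_at) was 1755 in CompE and 2469 in DMSO in DND41. In the other 9 lines it was 13.7 to 95.1 in CompE and 8.48 to 179 in DMSO, so neither DND41 array overlapped with any other line. P12-ICHIKAWA followed at 74.5 in CompE and 179 in DMSO, and then HPB-ALL at 95.1 in CompE and 57.4 in DMSO. On the log2 scale the gap from DND41 to P12-ICHIKAWA was 3.98, against a residual SD of 0.674 for this probe set after line and treatment were fitted. P12-ICHIKAWA and HPB-ALL differed by 0.56, less than that SD. HPB-ALL lay 0.85 above the next line, KOPTK1, and the 7 lowest lines, KOPTK1 to CCRF-CEM, followed each other at gaps within the SD. The genes whose levels over the 10 line means were most like CD79A were H2AC6 (Pearson r = 0.908), RGS1 (r = 0.894) and IFI44 (r = 0.848), out of 7695 genes. These likenesses rested largely on the extreme lines: without DND41 and P12-ICHIKAWA they were 0.67, 0.00 and 0.61.

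CD79B, or Ig-beta, is the partner of CD79A in the receptor, and was moderate in all lines. Its signal (205297_s_at) had a lowest value of 33.9, a median of 101 and a highest of 164 in CompE, against 60.3, 89.9 and 159 in DMSO. All 10 lines had a mean of both arrays above 50, and the 2 treatments overlapped over most of their range. CCRF-CEM stood highest, at 129 in CompE and 159 in DMSO, and PF382 lowest, at 44.2 in CompE and 60.8 in DMSO. No pair of neighbours in the order of the 10 lines differed by more than the residual SD of 0.427. Most like CD79B over lines were CD58 (r = 0.885), GNPAT (r = 0.867) and SLK (r = 0.866). Without CCRF-CEM and PF382 these values were 0.94, 0.76 and 0.87.

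POU2AF1 was the member with the widest expression beside CD79B. Its signal (205267_at) had a lowest value of 27.7, a median of 196 and a highest of 305 in CompE, against 11.98, 134 and 512 in DMSO. CUTLL1 was the highest line, at 305 in CompE and 512 in DMSO, and lay 0.88 above DND41 on the log2 scale, more than the residual SD of 0.465. DND41, ALL-SIL, KOPTK1, P12-ICHIKAWA and HPB-ALL formed a middle group at 194 to 287 in CompE and 133 to 153 in DMSO, with gaps between neighbours within the SD. RPMI8402 lay 0.95 below HPB-ALL, MOLT3 lay 0.52 below PF382, and CCRF-CEM was lowest, at 27.7 in CompE and 28.2 in DMSO. MOLT3 and CCRF-CEM did not exceed the bound by the mean of both arrays. The genes most like it over lines were ZNF444 (r = 0.928), MAST4 (r = 0.92) and ICOS (r = 0.888), at 0.90, 0.84 and 0.87 without MOLT3 and CCRF-CEM.

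**Figure D2:**
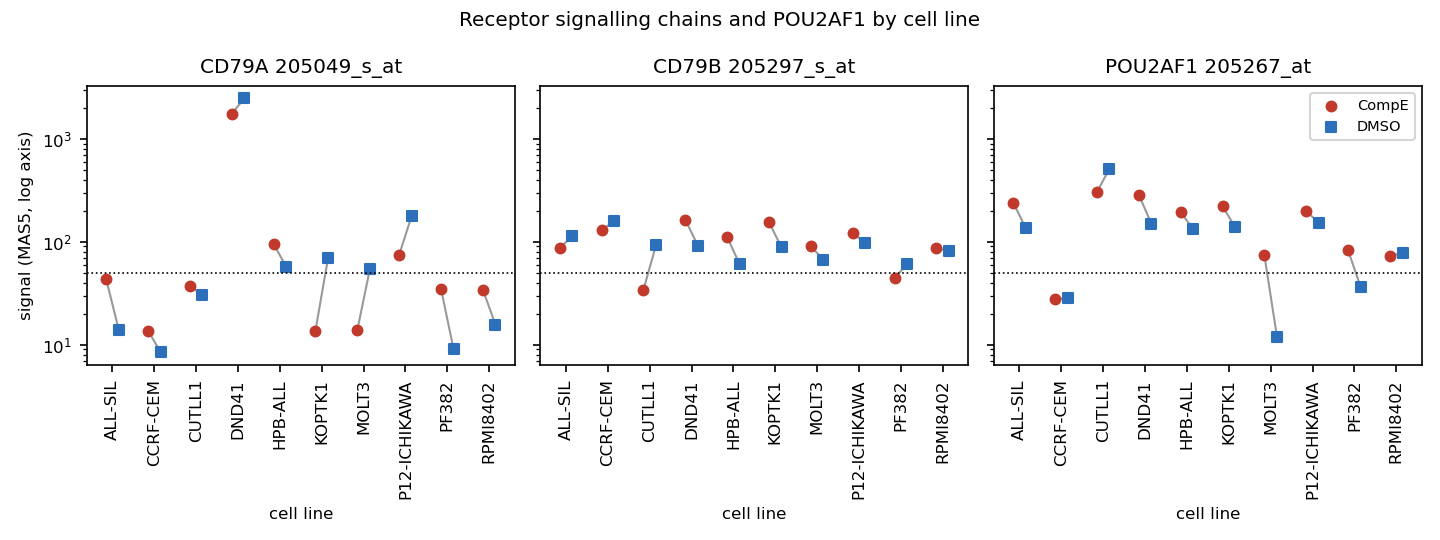
Signal of CD79A, CD79B and POU2AF1 in each cell line on a log axis, with red circles for CompE, blue squares for DMSO, grey lines joining the pair of a line, and a dotted line at the bound of 50. CD79A stands out in DND41 alone, CD79B stays between 33.9 and 164, and POU2AF1 is highest in CUTLL1.

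IGHM was bright in HPB-ALL and ALL-SIL by 2 of its 5 probe sets. By 212827_at, HPB-ALL had 833 in CompE and 168 in DMSO, and ALL-SIL had 312 in CompE and 134 in DMSO. By 209374_s_at, HPB-ALL had 977 in CompE and 111 in DMSO, and ALL-SIL had 367 in CompE and 99.9 in DMSO. The other 8 lines were at 25.0 to 70.6 in CompE and 5.53 to 37.9 in DMSO by 212827_at, and at 8.77 to 48.6 in CompE and 7.97 to 41.2 in DMSO by 209374_s_at. Both arrays of HPB-ALL and ALL-SIL were thus above every array of the other lines. The gap from ALL-SIL to the next line was 1.92 and 1.95 on the log2 scale, against residual SDs of 0.473 and 0.781. HPB-ALL lay 0.83 above ALL-SIL by the first probe set and 0.75 by the second, where the gap was within the SD.

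The levels of these 2 probe sets went together over the 10 lines (r = 0.95, a description, since they read the same RNA). Lines other than HPB-ALL and ALL-SIL were dim by both, and r without these bright lines was not computed. The other 3 IGHM probe sets gave a different order. Their correlations with 209374_s_at were -0.08 for 211634_x_at, -0.09 for 215949_x_at and -0.20 for 216491_x_at. The suffix _x_at marks, in the manufacturer's scheme, probes that also match other sequences. By 211634_x_at the highest line was CUTLL1, at 197 in CompE and 194 in DMSO, and by 216491_x_at again CUTLL1, at 117 in CompE and 263 in DMSO. DND41 led by 215949_x_at, at 69.0 in CompE and 138 in DMSO. The order of the lines by IGHM level thus differed between probe sets.

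IGHD encodes the heavy chain of the delta class and lies next to IGHM in the heavy chain locus. It is no member, but 2 of its 4 probe sets followed IGHM. By 222285_at it had 268 in CompE and 111 in DMSO in HPB-ALL, and 84.7 in CompE and 28.9 in DMSO in ALL-SIL. The other 8 lines had 3.86 to 13.2 in CompE and 2.68 to 29.6 in DMSO. By 213674_x_at HPB-ALL had 204 in CompE and 55.4 in DMSO, and ALL-SIL had 49.9 in CompE and 10.5 in DMSO. By that probe set the other 8 lines had 1.43 to 9.22 in CompE and 2.26 to 5.39 in DMSO. Levels of these probe sets correlated with IGHM 209374_s_at at r = 0.95 and 0.92 over the 10 lines. The remaining IGHD probe sets did so at 0.65 (215621_s_at) and 0.23 (214973_x_at). The suffix _x_at, with its limit given above, is carried by 213674_x_at as well as by 214973_x_at. Lines other than HPB-ALL and ALL-SIL were dim by 222285_at and 213674_x_at, and r without these bright lines was not computed. The genes most like IGHM 212827_at were ENC1 (r = 0.885), SERTAD2 (r = 0.878) and AP1S2 (r = 0.877), and without ALL-SIL and HPB-ALL these values were 0.65, 0.13 and 0.31.

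**Figure D3:**
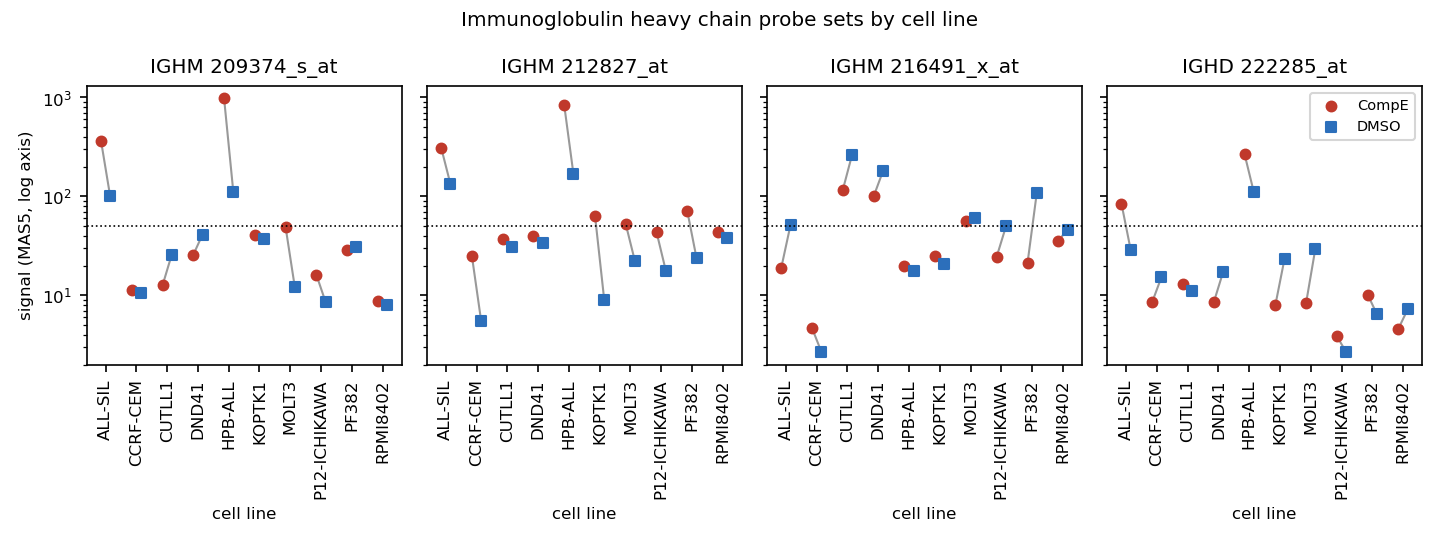
Signal of 3 IGHM probe sets and 1 IGHD probe set in each cell line on a log axis, with red circles for CompE, blue squares for DMSO and a dotted line at 50. In HPB-ALL and ALL-SIL the CompE array lies above the DMSO array in the panels of 212827_at, 209374_s_at and IGHD 222285_at, while 216491_x_at shows another pattern, highest in CUTLL1.

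The remaining 4 genes were at or near the dim end of the arrays. PAX5, the factor that commits progenitors to the B lineage, had a median of 14.1 in CompE and 12.9 in DMSO by 221969_at, and of 10.0 in CompE and 10.5 in DMSO by 206802_at. Its 1 value above 50 was 64.7, in ALL-SIL in CompE, against 12.2 in DMSO in that line. BLNK, the adaptor that links the B-cell receptor to downstream enzymes, was at most 33.1 in CompE and 31.3 in DMSO. MS4A1, which encodes CD20, was at most 61.4 in CompE and 35.4 in DMSO, and no line exceeded 50 by the mean of both arrays. CD22, an inhibitory receptor of B cells, was at most 85.6 in CompE and 72.3 in DMSO by 38521_at, whose highest line was PF382. Its other probe sets were dimmer. By 204581_at and 217422_s_at CD22 was at most 20.5 in CompE and 31.5 in DMSO, and by 220674_at 62.8 in CompE and 41.0 in DMSO. The genes most like CD22 and PAX5 by their brightest probe sets rested on such dim values. They were CAMSAP2 (r = 0.911), CD1A (r = 0.901) and SUPT7L (r = 0.88) for CD22, and SCNN1A (r = 0.907), SMC6 (r = 0.862) and IDH2 (r = 0.86) for PAX5. Without the 2 most extreme lines the values were 0.95, 0.86 and 0.72 for CD22 and 0.49, 0.81 and 0.51 for PAX5.

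The second question was whether these genes change under CompE, the gamma-secretase inhibitor. Changes were fitted over 13329 probe sets with line as a block in limma, on the log2(signal + 16) scale, where the change of a dim gene is understated. Of the 17 member probe sets, 7 were bright enough to be tested. These covered CD79A, CD79B, IGHM, CD22 and POU2AF1, while no probe set of BLNK, MS4A1 or PAX5 was tested. Of the 7, 1 was called, higher in CompE, at an adjusted p under 0.05. In the background, 2.09% of tested probe sets were called higher, 2.39% lower and 4.48% in either direction. Nothing is read from a count of 1 in 7 against that share. With each array centred on its median, 125 probe sets were higher and 469 lower, against 279 and 318 without centring.

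The called probe set was IGHM 212827_at. Its median signal was 48.0 in CompE and 27.3 in DMSO, with a lowest value of 25.0 in CompE and 5.53 in DMSO and a highest of 833 in CompE and 168 in DMSO. The groups of arrays overlapped, but within lines CompE was higher in 10 of 10. Only HPB-ALL and ALL-SIL were above the bound by the mean of both arrays, so the signs in the other lines rest on dim values. IGHM rose by 0.92 ± 0.191 log2 units by this probe set (SE over 10 pairs, limma adjusted p = 0.020, 95% interval 0.52 to 1.33). Its rise was known when the genes were listed, so this p is no independent support. In the lines above the bound the change was 2.21 in HPB-ALL and 1.13 in ALL-SIL. Without HPB-ALL it was 0.78 (limma adjusted p = 0.0547), and with HPB-ALL and ALL-SIL both left out 0.74 (limma adjusted p = 0.12), a fit in which 0 probe sets were called. With the ACTB ratio as a covariate the change was 0.76 (limma adjusted p = 0.0772). The ACTB ratio was 1.30 in CompE and 1.03 in DMSO in HPB-ALL, and 1.37 in CompE and 1.42 in DMSO in ALL-SIL. The part of this ratio in the result was not tested beyond that covariate.

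The second bright IGHM probe set, 209374_s_at, was higher in CompE in 7 of 10 lines. It changed by 2.97 in HPB-ALL and 1.72 in ALL-SIL, the only lines above the bound by the mean of both arrays. Under the bound it changed by 1.20 in MOLT3 and by -0.55 to 0.39 in the other 7 lines. The changes under the bound rest on dim values and are given as descriptions. Over all lines the change of 209374_s_at was 0.54 ± 0.285 and did not pass (limma adjusted p = 0.268, interval -0.06 to 1.14). By 216491_x_at IGHM was lower in CompE in 7 of 10 lines, at -0.52 ± 0.186 (limma adjusted p = 0.115, interval -0.91 to -0.12). The lowest of these changes were -1.74 in PF382 and -1.07 in CUTLL1. The untested probe sets 211634_x_at and 215949_x_at stood at -0.01 and -0.13. In HPB-ALL and ALL-SIL the IGHD probe set 222285_at changed by 1.16 and 1.17, and 213674_x_at by 1.62 and 1.31. Both were under the filter for the test, and over all lines they stood at 0.02 and 0.36. IGHD 215621_s_at, also under the filter, changed by 0.58 in HPB-ALL and 0.52 in ALL-SIL, on dim values. IGHD 214973_x_at, the 1 IGHD probe set that was tested, was lower in CompE, at -0.73 in HPB-ALL and -0.58 in ALL-SIL. Over all lines 214973_x_at was at -0.44 (limma adjusted p = 0.129). The IGHD probe sets thus differed in direction in these lines.

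POU2AF1 was higher in CompE in 7 of 10 lines but did not pass the test. Its change was 0.49 ± 0.18 (SE, n = 10 pairs, limma adjusted p = 0.122, 95% interval 0.11 to 0.87). In 6 of the 8 lines above the bound it was higher in CompE, by 0.34 in P12-ICHIKAWA to 0.91 in PF382. The exceptions were CUTLL1, the line with the most POU2AF1, at -0.72, and RPMI8402 at -0.08. MOLT3, under the bound, had 73.8 in CompE and 11.98 in DMSO, and without it the change over the other lines was 0.35.

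CD79A and CD79B had no consistent direction. CD79A changed by -0.06 ± 0.249 (limma adjusted p = 0.914, interval -0.59 to 0.47). In its 3 lines above the bound it was at -0.49 in DND41, -1.11 in P12-ICHIKAWA and 0.60 in HPB-ALL. CD79B changed by 0.08 ± 0.172 (limma adjusted p = 0.812, interval -0.28 to 0.45), with 6 lines higher in CompE and 4 lower. Its changes were 0.74 in DND41, 0.74 in HPB-ALL and 0.72 in KOPTK1, against -1.11 in CUTLL1. In DND41 the 2 partner chains thus had opposite signs, CD79A at -0.49 and CD79B at 0.74, on 1 array of each treatment. CD22 (38521_at) was at 0.06 ± 0.164 (limma adjusted p = 0.862), and its sign turned with median centring (-0.01) and quantile normalization (-0.05).

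**Figure D4:**
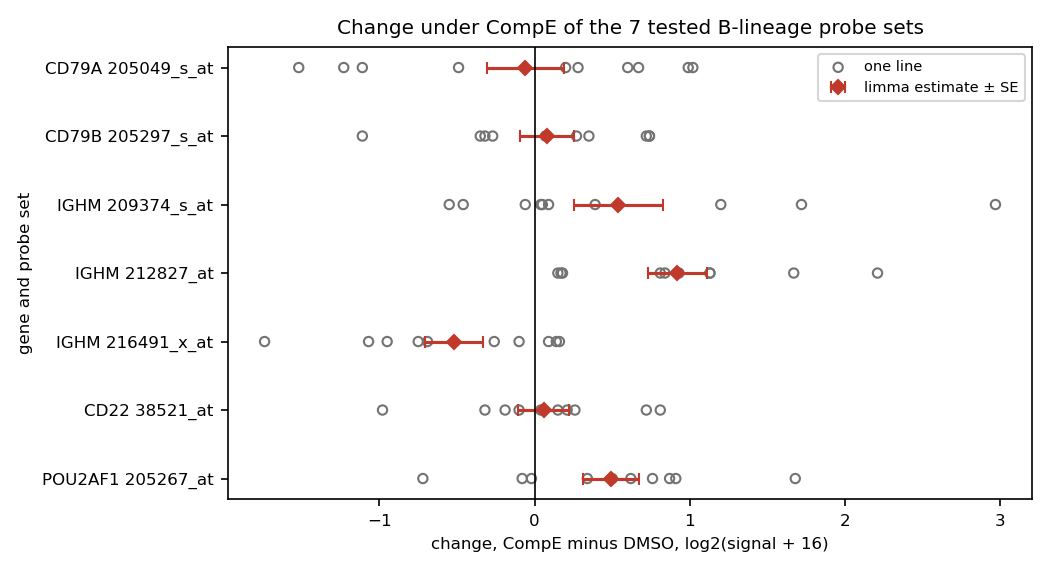
Change under CompE of the 7 tested B-lineage probe sets, as CompE minus DMSO on the log2(signal + 16) scale, with open circles for the 10 lines and red diamonds for the limma estimate with its SE. All 10 circles of IGHM 212827_at lie above 0, and those of the other 6 probe sets lie on both sides of it.

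The untested dim members are given as descriptions. BLNK stood at 0.37, MS4A1 at 0.36 by 210356_x_at and 0.30 by 217418_x_at, and PAX5 at -0.04 by 206802_at and -0.03 by 221969_at. Of all 8886 probe sets under the filter, 75.6% had a change above 0, with a median of 0.12, against 55.3% and a median of 0.03 among the tested ones. Of the 10 untested member probe sets 6 were above 0. The 10th percentile of signal was higher in CompE in 7 lines, among them DND41 at 8.35 in CompE and 3.67 in DMSO and PF382 at 8.93 in CompE and 4.97 in DMSO, and its part in these small values was not tested. Over all members, 24 of the 40 values above the bound were higher in CompE and 16 lower. On the log2(signal + 16) scale 4 of these were higher by 1 or more, all of them IGHM in HPB-ALL and ALL-SIL by 212827_at and 209374_s_at. As many, 4, were lower by 1 or more: IGHM by 216491_x_at in PF382 and CUTLL1, CD79A in P12-ICHIKAWA and CD79B in CUTLL1. Signals without that offset also lay far apart for other values, in both directions. In PF382, POU2AF1 had 82.4 in CompE and 36.2 in DMSO, and CD22 (38521_at) had 85.6 in CompE and 41.8 in DMSO. In KOPTK1, CD22 (38521_at) had 28.9 in CompE and 72.3 in DMSO. In DND41, IGHM (215949_x_at) had 69.0 in CompE and 138 in DMSO.

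Other genes of the B lineage were read by the brightest probe set of each gene. The background for such gene-level counts was 2.78% called higher, 2.39% lower and 5.17% in either direction among 7695 genes, with a median change of 0.04. Among 8 genes for parts of the pre-B-cell and B-cell receptor, 2 were bright enough to be tested and 0 were called, with a median of -0.52. IGLL1, part of the surrogate light chain of the pre-B-cell receptor, had 1633 in CompE and 2087 in DMSO in CCRF-CEM. In HPB-ALL, the line with the brightest IGHM, it had 118.5 in CompE and 1426 in DMSO. Over all lines it was at -0.60 (limma adjusted p = 0.2075), and without HPB-ALL at -0.29. VPREB1, the other part of the surrogate light chain, and VPREB3 were at most 34.1 and 47.9 on any array. IGKC, the kappa light chain, and IGLL5, a lambda-like chain gene, were at most 64.6 and 77.5. JCHAIN, which joins secreted immunoglobulins, had 297 in CompE and 111 in DMSO in DND41, the line with high CD79A, and at most 16.5 in CompE and 7.92 in DMSO elsewhere.

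Of the list of B-cell receptor signalling, 9 genes of 13 measured were tested, 1 rose and 0 fell, with a median of 0.03. PRKCB, a protein kinase C isoform used by the B-cell receptor, rose by 0.34 ± 0.0838 (limma adjusted p = 0.0345) in 10 of 10 lines, though with median centring it was at 0.27 (limma adjusted p = 0.115). Its call held in 8 of 24 alternatives, and with 1 line left out it passed only without KOPTK1 or without P12-ICHIKAWA (limma adjusted p = 0.022 to 0.0747 over the 10 fits). The kinases SYK and BTK, central to B-cell receptor signalling, were at most 46.1 and 19.9 by their brightest probe sets. PTPN6, a phosphatase that acts downstream of inhibitory receptors such as CD22, was highest in CUTLL1, at 3866 in CompE and 3927 in DMSO, and was at 0.03 over all lines. VAV3 (954 at most), VAV1 (823) and INPP5D (802) were also bright in some lines, with changes of -0.03, 0.33 and -0.11 that did not pass.

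Among 15 measured B-lineage transcription factors, 10 were tested, 1 rose and 0 fell, with a median of 0.15. BACH2, a transcriptional repressor of B and T lymphocytes, was higher in 10 of 10 lines and rose by 0.49 ± 0.133 (limma adjusted p = 0.0468). Of 24 alternatives 6 kept it past the threshold, and with 1 line left out it passed only without KOPTK1 or without P12-ICHIKAWA (limma adjusted p = 0.0243 to 0.123 over the 10 fits). With median centring it was at 0.42 (limma adjusted p = 0.0918). XBP1, the plasma cell and secretory factor, was highest in DND41, at 3812 in CompE and 3564 in DMSO, and lowest in HPB-ALL, P12-ICHIKAWA and PF382, at 27.4 to 71.6 in CompE and 36.4 to 77.7 in DMSO. LEF1 (5894 at most), IKZF1 (1787) and TCF3 (1557), factors shared by both lymphoid lineages, were bright in every line, with changes of 0.19, 0.01 and 0.27 that did not pass.

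Of 14 measured B-cell surface genes, 8 were tested, 0 rose and 1 fell, with a median of 0.05. CR2, the complement receptor CD21 of mature B cells and a gene known to respond to NOTCH in T-ALL, fell by 1.95 ± 0.397 (limma adjusted p = 0.0188) in 9 of 10 lines. It was brightest in CUTLL1, at 1703 in CompE and 2191 in DMSO, and in HPB-ALL it had 217 in CompE and 1826 in DMSO. Without HPB-ALL the change was -1.84 (limma adjusted p = 0.0552), and without RPMI8402 -1.82 (limma adjusted p = 0.0539). In ALL-SIL, with bright IGHM, CR2 was at 2.18 in CompE and 3.67 in DMSO. MME, the early lymphoid antigen CD10, was bright in DND41 (2673 in CompE and 812 in DMSO), RPMI8402 (2566 in CompE and 1183 in DMSO) and HPB-ALL (1148 in CompE and 581 in DMSO), with at most 8.98 in CompE and 15.8 in DMSO in the other 7 lines. CD37 reached 1340 in CompE and 2128 in DMSO in P12-ICHIKAWA, and CD38 1840 in CompE and 1916 in DMSO in DND41. By their brightest probe sets, FCER2, CD180, CXCR5, TNFRSF17, FCRL2 and BANK1 stayed at or below 50 on every array. In the lines with bright CD79A or IGHM, as in all others, PAX5, BLNK and MS4A1 were at 64.7 or less.

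**Figure D5:**
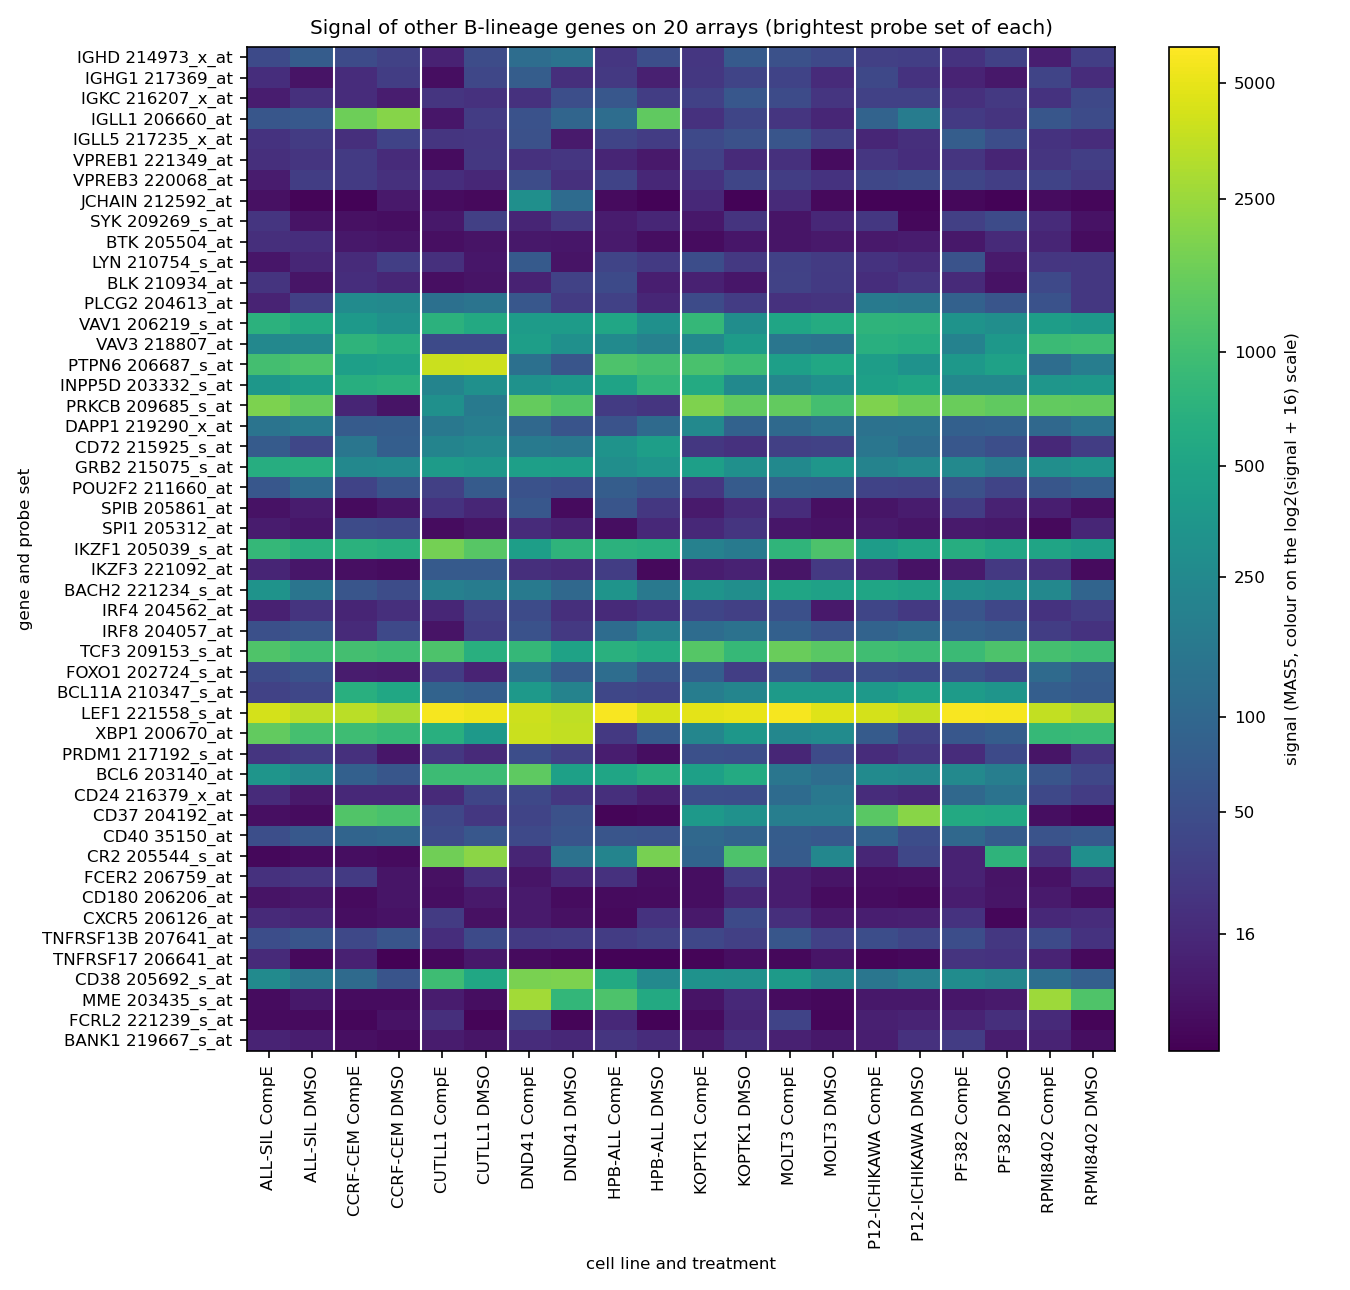
Signal of other B-lineage genes (rows, brightest probe set of each) on the 20 arrays (columns, CompE left of DMSO for each line), with colour on the log2(signal + 16) scale. Bright values sit in different lines for different genes, such as IGLL1 in CCRF-CEM and HPB-ALL, JCHAIN in DND41, and MME in DND41, HPB-ALL and RPMI8402.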

How the data were processed

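Total RNA of 10 lines was measured on 20 biotin-labelled Affymetrix arrays. The authors deposited linear signal intensity values made with MAS5, as the submitters' processing notes say. Its version and settings are not given in these sources. With 2% of values trimmed at either end, array means were 249.8 to 249.9, so all were scaled alike, and this scaling was kept. MAS5 subtracts mismatch signal, so values near 0 are noisy. Of 22277 probe sets, 62 controls were left out. The platform annotation gave 1 gene for 19064 probe sets, 19052 of them matched in RefSeq, and several for 1043, which were not named.

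Probe sets from the 40th percentile of mean log2(signal + 16) (near 32.5) were fitted in limma 3.58.1 (R 4.3.3) with line as a fixed block, intensity trend and Benjamini-Hochberg adjustment at 0.05 over 13329 probe sets. Titles name the line of each array, which gives the pairing. Whether both arrays of 1 line are from separate cultures is not stated. With line as a block, p-values rest on the spread of the paired change across lines. For 3 lines (MOLT3, CCRF-CEM, P12-ICHIKAWA) the DMSO label gives as medium a name that is also that of the RPMI8402 cell line, where the CompE label gives the medium of all other arrays. This may be a slip in the labels, which do not settle if media differed. Members and lists were chosen with earlier results of these data known. All member probe sets are shown. Genes of the 4 B-lineage lists were named if called or among the 4 brightest, marker genes of other cell types if called, and any others after their values were seen. Likeness is Pearson's r over 10 line means for the 3 closest tested genes. These genes were picked for the highest r among all tested genes. A high r thus follows in part from that choice, and the values, with or without the extreme lines, are descriptions. The code was tested on simulated data. The 24 alternatives were pseudocounts of 1 and 64, no filter, a mean signal above 50, 1 probe set per gene, median centring, quantile normalization, no replicate block, line as a random block, the ACTB ratio as a covariate, no intensity trend, an exact sign-flip test, 3 lines left out for their medium name, each of 10 lines left out, and HPB-ALL with ALL-SIL left out, the last chosen after seeing the data. No dates or slides were in the files. The number of arrays limits the precision.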

Additional observations from a re-analysis of the deposited data

Results flagged for a closer look

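CD79A in DND41 stood apart from the other 9 lines in both treatments. In CompE its signal was 1755, against 95.1 in HPB-ALL, the next highest line. In DMSO it was 2469, against 179 in P12-ICHIKAWA. On the log2 scale the gap to the next line made up 0.677 of the whole range in CompE and 0.551 in DMSO. Such gaps were looked for in 30 sets of 10 values, the levels in each treatment and the changes of the 10 probe sets with a line above the bound. The gene was chosen by these same signals, so the gaps are a description and no test.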

How the results depend on the processing

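The counts of called probe sets depended on the processing, with the cause not tested. In place of 279 higher and 318 lower they were 184 and 196 with no filter, 163 and 165 without the intensity trend, and 82 and 104 without the 3 lines with another medium name. Called higher were 125 with median centring and 165 with the ACTB ratio as a covariate. Leaving out 1 line gave 41 to 672 higher and 55 to 793 lower, lowest without HPB-ALL and highest without KOPTK1. Counts were 0 and 0 without HPB-ALL and ALL-SIL (limma; added after seeing the data; 1176 and 943 at an unadjusted p under 0.05), with exact sign-flip tests (1659 and 1281) and with no replicate block (limma, 280 and 310). The exact sign-flip test of 10 pairs has few distinct p-values. IGHM 212827_at stayed above 0 in 24 of 24 alternatives (0.58 to 1.29) and passed in 18. It was not past the threshold in 6: with the block of lines removed (adjusted p = 0.9997), the ACTB covariate (0.0772), the 3 lines left out (0.0684), HPB-ALL left out (0.0547), both bright lines left out (0.12) and the sign-flip test (0.0673). POU2AF1 passed in 0 of 24 (0.32 to 0.62, adjusted p 0.0615 to 0.9997). Values near 0 turned sign: CD79A was at 0.02 with a pseudocount of 1, 0.42 with the ACTB covariate, 0.21 without the 3 lines, 0.10 without KOPTK1, 0.07 without MOLT3 and 0.06 without P12-ICHIKAWA (-0.18 to 0.10 with 1 line left out); CD79B was at -0.17 with the ACTB covariate; CD22 was at -0.01 with median centring, -0.05 with quantile normalization, -0.02 without PF382 and -0.01 without RPMI8402 (-0.02 to 0.18 with 1 line left out). Of the list genes, CR2 passed in 18 of 24 alternatives, PRKCB in 8 and BACH2 in 6. With line as a random block PRKCB (adjusted p = 0.684) and BACH2 (0.116) did not pass. With a bound of 100 in place of 50, 13 member values were higher and 7 lower, since fewer lines enter. With quantile normalization 38 values, in place of 40, were above 50.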
